A study of Mus musculus with 36 samples.

Results

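The genes described here encode the oxygen-sensing enzymes of the HIF pathway and the protein that reads their mark: the prolyl hydroxylases Egln1, Egln2 and Egln3, the asparaginyl hydroxylase Hif1an, and Vhl. They were taken by name from 2 tables of 22558 genes each, and all 5 were found in both. Total RNA of C57BL/6 mice given DMOG, roxadustat or PBS, which serves as the control, was sequenced after depletion of ribosomal RNA, with 6 libraries per treatment in each table and 36 in all. No genetic change is named, so strain is what all groups share. The series concerns HIF stabilisers in the prevention of retinopathy of prematurity, a disease of the growing vessels of the retina. DMOG is a cell-permeable analogue of 2-oxoglutarate, and roxadustat is an oral inhibitor of the HIF prolyl hydroxylases. Dose, time after dosing, age, and whether the 6 libraries of a group come from separate animals are not given. By Xist and Y-linked genes each group held both female and male libraries, so they do not all come from a single animal. The p-values here reflect variation among these libraries, which may be in part technical.

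Prolyl hydroxylases use molecular oxygen and 2-oxoglutarate to hydroxylate proline residues of HIF alpha subunits, and the VHL protein binds the hydroxylated form and brings it to a ubiquitin ligase for destruction. Hif1an, known as FIH, hydroxylates an asparagine in the activation domain of HIF alpha, which blocks binding of the coactivators p300 and CBP. Egln1 (PHD2) is the main setter of HIF level in most tissues, and Egln1 and Egln3 (PHD3) are themselves textbook HIF target genes, whereas Egln2 (PHD1) is not usually counted among them. Both drugs inhibit the enzymes as proteins; the values below are levels of their messenger RNA.

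The sequences upstream of the start of transcription are shown because Egln1, Egln3 and Vhl were called in at least 1 comparison and Egln2 in none of the comparisons within a table. Each is the 250 bases before the annotated start, 5′ to 3′ on the strand of the gene, from RefSeq on GRCm38.p6, a later build than the mm9 of the expression tables. Capitals mark ACGTG, the form of the HIF response element core with A in front, searched on both strands (CACGT on the other). GCGTG, the other form, was counted separately (CACGC on the other), and no ACGTG match overlaps a GCGTG match in these windows. Egln1 lies at chr8:124949255-124949504 (minus strand), Egln3 at chr12:54203875-54204124 (minus strand), Egln2 at chr7:27166803-27167052 (minus strand, the first of its annotated starts) and Vhl at chr6:113623744-113623993 (plus strand).
Egln1: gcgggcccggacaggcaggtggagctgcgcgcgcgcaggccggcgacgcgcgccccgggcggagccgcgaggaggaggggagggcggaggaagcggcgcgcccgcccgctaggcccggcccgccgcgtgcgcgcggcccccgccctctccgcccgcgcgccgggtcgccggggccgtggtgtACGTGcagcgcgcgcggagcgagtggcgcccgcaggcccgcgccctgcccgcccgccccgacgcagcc
Egln3: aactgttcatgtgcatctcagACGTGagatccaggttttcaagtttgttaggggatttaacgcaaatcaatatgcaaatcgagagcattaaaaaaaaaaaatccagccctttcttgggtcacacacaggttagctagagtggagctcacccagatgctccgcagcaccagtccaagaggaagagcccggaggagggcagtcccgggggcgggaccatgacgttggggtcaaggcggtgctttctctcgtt
Egln2: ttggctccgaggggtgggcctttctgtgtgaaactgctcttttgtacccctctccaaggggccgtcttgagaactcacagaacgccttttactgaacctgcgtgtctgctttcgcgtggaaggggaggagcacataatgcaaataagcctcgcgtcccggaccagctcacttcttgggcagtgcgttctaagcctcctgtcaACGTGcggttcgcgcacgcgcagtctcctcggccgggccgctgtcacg
Vhl: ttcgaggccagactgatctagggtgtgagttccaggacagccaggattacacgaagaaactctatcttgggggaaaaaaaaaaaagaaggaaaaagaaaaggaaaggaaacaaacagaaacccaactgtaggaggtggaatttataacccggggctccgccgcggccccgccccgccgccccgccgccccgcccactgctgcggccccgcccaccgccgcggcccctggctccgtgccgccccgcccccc
ACGTG begins 68 bases before the start of Egln1, 229 bases before that of Egln3 and 48 bases before that of Egln2. It is in neither the Vhl nor the Hif1an window. GCGTG occurs 1 time in the Egln1 window and 3 times in the Egln2 window shown, and not in those of Egln3, Vhl or Hif1an. The window of the second annotated start of Egln2, not shown, holds ACGTG 0 times and GCGTG 1 time. Among 32851 such windows of 27025 genes, 16.6% hold ACGTG and 28.2% hold GCGTG. These matches describe the letters of the windows only.

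The tissue labels go against the transcriptomes. The 18 libraries labelled retina had Apoa1, a liver apolipoprotein gene, at 6299 to 12786 FPKM (fragments scaled by transcript length and by library size) and Afp at 4062 to 12506 FPKM, with the photoreceptor genes Crx and Rcvrn at 0 in every library. The 18 libraries labelled liver had Crx at 511 to 819 FPKM and Rcvrn at 787 to 1447 FPKM, with Apob at most 0.00806 FPKM and Serpina1a at 0. Alb was listed at 0 in all 18 libraries labelled retina. Results are therefore named by transcriptome: liver RNA for the table labelled retina, and retina RNA for the table labelled liver. In bulk RNA, fewer cells of a type and less RNA per cell cannot be told apart. Library sums were 433021 to 540324 FPKM for liver RNA and 542785 to 617853 FPKM for retina RNA. No read counts are given and the depth is unknown.

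DMOG replicate 5 of the liver RNA stands apart from its group. Its Egln1 (9.40 FPKM), Egln3 (8.23 FPKM) and Vhl (8.61 FPKM) fell inside the range of the PBS libraries and outside that of the other 5 DMOG libraries. Of 10 genes fixed as readouts of HIF activity, 5 were inside the PBS range in this library and 1 inside the range of the other DMOG libraries. The liver RNA values of the 5 genes with DMOG, and the counts over lists, are given with and without this library where it changes them. It was singled out by values of these same genes and readouts. Estimates, SEs and p-values without it therefore depend on that choice and are not separate support for a call.

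In liver RNA, DMOG was followed by higher Egln1, Egln3 and Vhl, and roxadustat by higher Egln1 and Egln3. In retina RNA, roxadustat was followed by higher Egln1 and Vhl, and none of the 5 passed the test with DMOG. Egln2 and Hif1an passed it in none of the 6 comparisons within a table. A gene was called at a Benjamini-Hochberg adjusted p below 0.05 in limma over all genes tested. In liver RNA, 3 of 5 were called with DMOG against PBS, all higher, where 20.0% of 12657 genes were called (8.26% higher, 11.7% lower), and 2 of 5 with roxadustat against PBS, both higher, where 4.19% were called (2.16% higher, 2.02% lower). With DMOG replicate 5 left out, 3 of 5 were higher with DMOG, where 35.5% of genes were called (17.3% higher, 18.1% lower). Roxadustat then also gave 3 of 5, Vhl being added, where 8.78% were called (4.12% higher, 4.65% lower). In retina RNA, 0 of 5 were called with DMOG, where 1.07% of 13779 genes were called (0.370% higher, 0.697% lower). Roxadustat gave 2 of 5, both higher, where 2.34% were called (1.69% higher, 0.653% lower). Some genes that were not called had an unadjusted p under 0.05 in limma. With DMOG in retina RNA these were Egln1 and Egln2. With roxadustat they were Egln2 and Egln3 in retina RNA, and Egln2 and Vhl in liver RNA. The share of all genes under that level is not given here, so these are not read as responses.

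**Figure D1:**
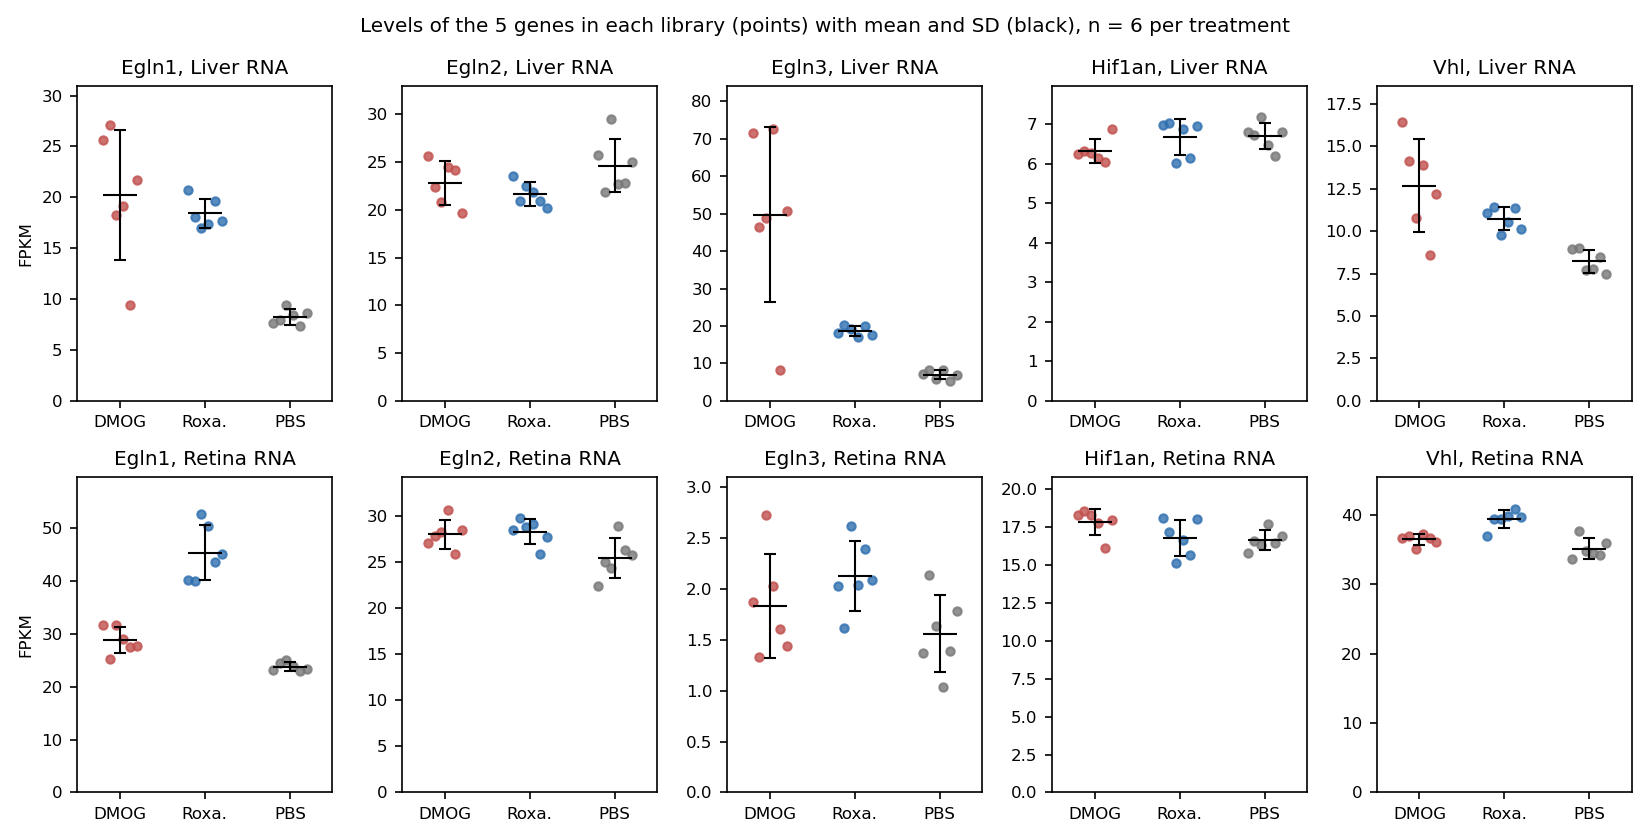
FPKM of each gene in every library (points, replicates from left to right) with mean and SD in black, n = 6 per treatment. The upper row is liver RNA (labelled retina) and the lower row is retina RNA (labelled liver); each panel has its own axis from 0. In liver RNA, Egln3 reaches 72.5 FPKM with DMOG, where replicate 5 is at 8.23 FPKM among the PBS libraries. In retina RNA, the lowest Egln1 value with roxadustat rounds to 40.0 FPKM, clear of every DMOG and PBS library.

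Without drug, the order of the genes differed between the RNAs. In PBS liver RNA, Egln2 led with 24.6 ± 2.80 FPKM (SD, n = 6), and its libraries did not overlap those of Egln1, next at 8.24 ± 0.753 FPKM. Vhl at 8.23 ± 0.681 FPKM, Egln3 at 6.96 ± 1.24 FPKM and Hif1an at 6.70 ± 0.335 FPKM followed, and neighbours in this order overlapped in range. In PBS retina RNA, Vhl led with 35.1 ± 1.49 FPKM, above Egln2 at 25.4 ± 2.19 FPKM in 6 of 6 libraries. Egln2 and Egln1 (23.8 ± 0.844 FPKM) overlapped, Hif1an stood below them at 16.6 ± 0.641 FPKM, and Egln3 was last at 1.56 ± 0.382 FPKM, each without overlap with its neighbour above. FPKM is per transcript length, so these are levels that can be set side by side within a table, while the tables were made apart.

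Egln1 rose with both drugs in liver RNA and with roxadustat in retina RNA. In liver RNA its lowest, median and highest values were 9.40, 20.4 and 27.1 FPKM with DMOG, 17.0, 17.9 and 20.7 FPKM with roxadustat, and 7.38, 8.18 and 9.44 FPKM with PBS. All roxadustat libraries and 5 of 6 DMOG libraries were above every PBS library. On the log2(FPKM + 0.5) scale used throughout, the change with DMOG was 1.18 ± 0.17 (SE), adjusted p = 0.000792 in limma, a fold of 2.26 (95% interval 1.76 to 2.91). For roxadustat it was 1.12 ± 0.17 (adjusted p = 0.00127, limma), a fold of 2.17 (1.69 to 2.79). Leaving out DMOG replicate 5, the DMOG value became 1.38 ± 0.10 (adjusted p = 1.24e-08, limma), and roxadustat libraries then averaged 0.26 lower in log2 than DMOG libraries, which did not pass the test (adjusted p = 0.0761).

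In retina RNA, Egln1 had 25.3, 28.3 and 31.6 FPKM (lowest, median, highest) with DMOG, 40.0, 44.3 and 52.6 FPKM with roxadustat, and 22.9, 23.6 and 25.0 FPKM with PBS. The ranges of the groups did not overlap, with roxadustat on top and DMOG between it and PBS. Roxadustat over PBS came to a log2 value of 0.91 ± 0.07 (SE), or 1.88-fold (1.70 to 2.07, adjusted p = 1.17e-07 in limma), and of 0.64 ± 0.07 over DMOG (adjusted p = 1.94e-05). DMOG over PBS was 0.27 ± 0.07, or 1.20-fold, and missed the threshold (adjusted p = 0.0660). It passed with only DMOG and PBS in the model (adjusted p = 0.0458) and without roxadustat replicate 3 (adjusted p = 0.0488). In these libraries the summed lens markers were 13.0 to 971 FPKM with DMOG, 219 to 13054 FPKM with roxadustat and 2319 to 25896 FPKM with PBS, and their part in the Egln1 result was not tested.

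Egln3, the hydroxylase with the widest range here, had 8.23, 49.7 and 72.5 FPKM (lowest, median, highest) with DMOG in liver RNA, 17.0, 18.6 and 20.4 FPKM with roxadustat, and 5.19, 7.05 and 8.29 FPKM with PBS. The 5 DMOG libraries other than replicate 5 held 46.4 FPKM or more, above every roxadustat library, and roxadustat was above every PBS library. The log2 fold change over PBS was 2.51 ± 0.36 (SE) with DMOG, a fold of 5.68 (3.39 to 9.55, adjusted p = 0.000792 in limma), and 1.38 ± 0.36 with roxadustat, a fold of 2.59 (1.55 to 4.36, adjusted p = 0.0342). With that library left out these were 2.96 ± 0.13, or 7.78-fold (adjusted p = 2.92e-11 in limma), and 1.38 ± 0.12 (adjusted p = 8.07e-07). The roxadustat call with all libraries is thin in this model, where the groups of a table share an estimate of the spread. Its SE was 0.36 with DMOG replicate 5 in the fit and 0.12 without it. Leaving out any of the 12 roxadustat or PBS libraries gave an adjusted p of 0.0535 to 0.0748 in limma. Leaving out any DMOG library kept the call, as did a model with only roxadustat and PBS.

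Roxadustat against DMOG, Egln3 in liver RNA differed by a log2 value of -1.13 ± 0.36 (SE), which missed the threshold with all libraries (adjusted p = 0.0923, limma). Among the libraries other than DMOG replicate 5 the difference was -1.58 ± 0.13 (adjusted p = 1.15e-06, limma), with all 6 roxadustat libraries below all 5 DMOG libraries. Doses and times are not given, so this compares the treatments as used.

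In retina RNA, Egln3 stayed low. It had 1.33, 1.74 and 2.73 FPKM (lowest, median, highest) with DMOG, 1.61, 2.06 and 2.62 FPKM with roxadustat, and 1.04, 1.51 and 2.14 FPKM with PBS, and the ranges overlapped. The log2 fold change over PBS was 0.17 ± 0.14 with DMOG (95% interval -0.12 to 0.47) and 0.36 ± 0.14 with roxadustat (0.07 to 0.65), neither called in limma (adjusted p = 0.591 and 0.177). At this level the added 0.5 shrinks a fold change.

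Egln2, the third prolyl hydroxylase, was called with neither drug. In liver RNA it had 19.6, 23.3 and 25.6 FPKM (lowest, median, highest) with DMOG, 20.2, 21.4 and 23.5 FPKM with roxadustat, and 21.9, 23.9 and 29.5 FPKM with PBS, and the groups overlapped. Its log2 fold change over PBS was -0.10 (95% interval -0.27 to 0.06) with DMOG and -0.18 (-0.34 to -0.01) with roxadustat, adjusted p = 0.356 and 0.229 in limma. In retina RNA it had 25.9, 28.0 and 30.7 FPKM with DMOG, 25.8, 28.6 and 29.8 FPKM with roxadustat, and 22.4, 25.4 and 28.9 FPKM with PBS. The log2 fold changes there were 0.14 (0.02 to 0.25) and 0.15 (0.04 to 0.27), adjusted p = 0.261 and 0.144 in limma; the roxadustat value was called without PBS replicate 4 (adjusted p = 0.0462). Egln2 overlaps Cyp2t4 on the opposite strand in GENCODE, and whether the authors counted by strand is not stated, so its level may hold reads of Cyp2t4.

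As a share of the summed prolyl hydroxylase FPKM, Egln3 was higher on average with both drugs than with PBS in liver RNA, and Egln1 was higher with roxadustat in both RNAs. In liver RNA, Egln3 was on average 49.9% of the sum with DMOG (55.9% without replicate 5), 31.8% with roxadustat and 17.6% with PBS. Egln2 was 28.0% with DMOG (22.1% without replicate 5), 36.9% with roxadustat and 61.8% with PBS, and Egln1 was 22.1% with DMOG (22.0% without replicate 5), 31.3% with roxadustat and 20.7% with PBS. The sum itself averaged 92.7 FPKM with DMOG (103 FPKM without replicate 5), 58.7 FPKM with roxadustat and 39.8 FPKM with PBS. In retina RNA, Egln1 was 49.0% with DMOG, 59.7% with roxadustat and 46.9% with PBS, and Egln3 stayed between 2.81% and 3.10% on average. The sum there averaged 58.6, 75.7 and 50.8 FPKM with DMOG, roxadustat and PBS. These shares restate the levels above and were not tested.

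**Figure D2:**
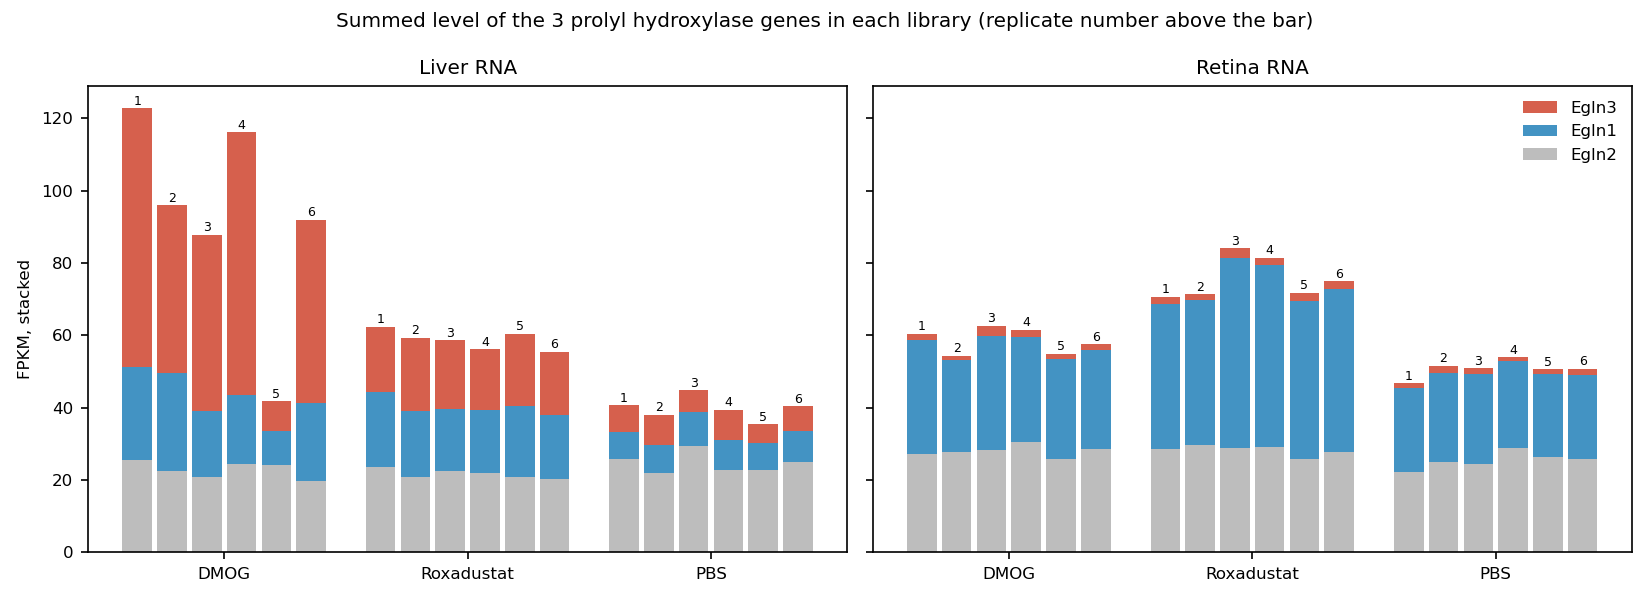
Stacked FPKM of Egln2 (grey), Egln1 (blue) and Egln3 (red) in each library, with replicate numbers above the bars, liver RNA left and retina RNA right, on a shared axis from 0. In liver RNA the red part of Egln3 averages 55.9% of the bar with DMOG without replicate 5 and 17.6% with PBS; in retina RNA the blue part of Egln1 averages 59.7% with roxadustat and 46.9% with PBS.

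Hif1an, the asparaginyl hydroxylase, was called in no comparison within a table. In liver RNA it had 6.06, 6.26 and 6.89 FPKM (lowest, median, highest) with DMOG, 6.03, 6.93 and 7.02 FPKM with roxadustat, and 6.20, 6.77 and 7.19 FPKM with PBS. In retina RNA it had 16.1, 18.1 and 18.5 FPKM with DMOG, 15.1, 16.9 and 18.1 FPKM with roxadustat, and 15.8, 16.5 and 17.7 FPKM with PBS. The groups overlapped in both RNAs. The 95% intervals of its log2 fold changes over PBS were -0.19 to 0.04 with DMOG and -0.12 to 0.11 with roxadustat in liver RNA, and -0.00497 to 0.20 and -0.09 to 0.11 in retina RNA.

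Vhl, the substrate receptor of the ubiquitin ligase, rose with DMOG in liver RNA and with roxadustat in retina RNA. In liver RNA it had 8.61, 13.0 and 16.4 FPKM (lowest, median, highest) with DMOG, 9.80, 10.8 and 11.4 FPKM with roxadustat, and 7.48, 8.10 and 9.01 FPKM with PBS. All roxadustat libraries and 5 of 6 DMOG libraries were above every PBS library. The DMOG change was 0.57 ± 0.11 in log2 (SE), or 1.48-fold (1.26 to 1.75, adjusted p = 0.00225 in limma), and that of roxadustat 0.36 ± 0.11, a fold of 1.29 (1.09 to 1.51), which missed the threshold (adjusted p = 0.0726). If DMOG replicate 5 is left out they were 0.67 ± 0.09 (adjusted p = 1.63e-05) and 0.36 ± 0.08 (adjusted p = 0.0104, called), and roxadustat was then lower than DMOG by a log2 value of -0.31 ± 0.09 (adjusted p = 0.0238). The roxadustat value was also called in limma without DMOG replicate 1 (adjusted p = 0.0460), with library weights (adjusted p = 0.00827) and with only roxadustat and PBS in the model (adjusted p = 0.00284).

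In retina RNA, Vhl had 35.1, 36.7 and 37.3 FPKM (lowest, median, highest) with DMOG, 37.0, 39.6 and 40.9 FPKM with roxadustat, and 33.6, 34.7 and 37.7 FPKM with PBS. In all, 5 of 6 roxadustat libraries were above every PBS library. Roxadustat moved it by 0.16 ± 0.03 in log2 (SE), or 1.12-fold (1.06 to 1.18, adjusted p = 0.0133 in limma), and DMOG 0.05 ± 0.03 (adjusted p = 0.480). The roxadustat call was lost when each library was rescaled to an equal total (adjusted p = 0.107) and with only the groups compared in the model (adjusted p = 0.0665).

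**Figure D3:**
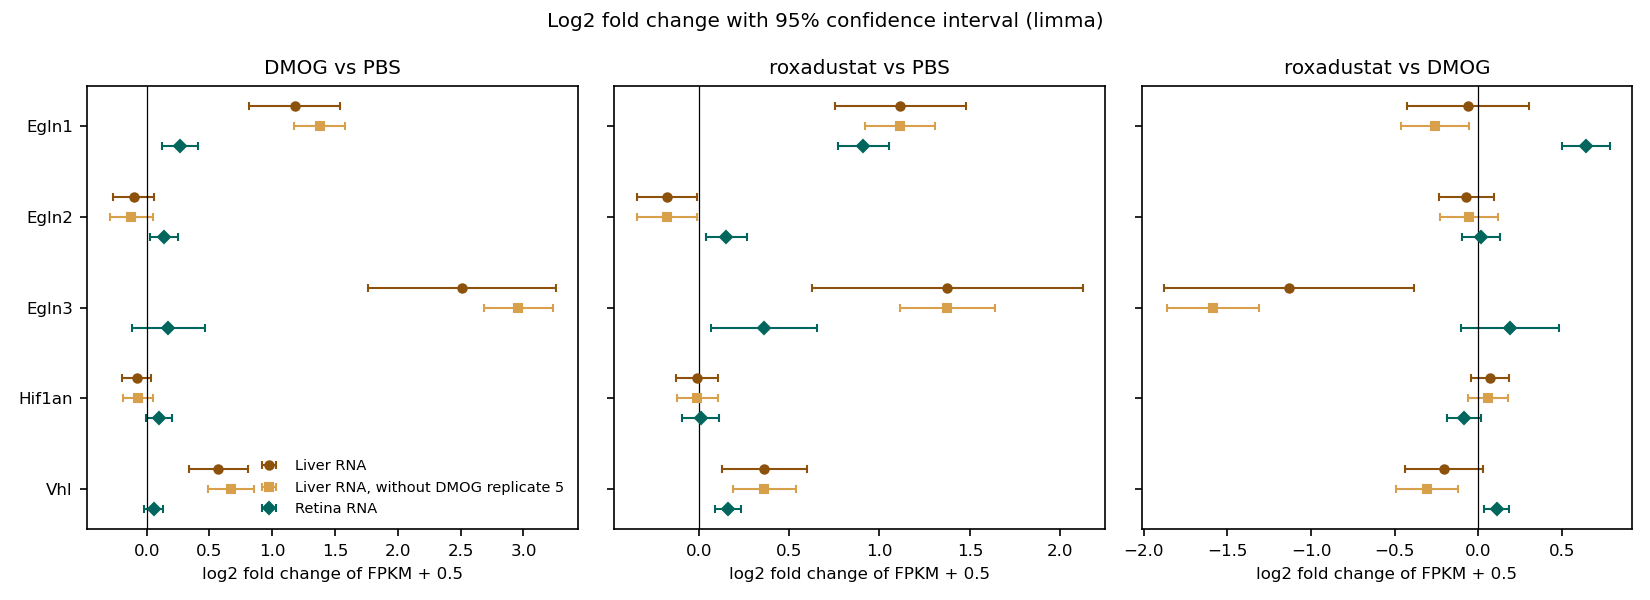
Log2 fold change of FPKM + 0.5 with its 95% confidence interval from limma for each gene, in DMOG against PBS, roxadustat against PBS and roxadustat against DMOG; each panel has its own horizontal axis. Brown is liver RNA, light brown liver RNA without DMOG replicate 5, green retina RNA. Egln3 with DMOG lies at 2.51 in liver RNA (2.96 without replicate 5) and at 0.17 in retina RNA, and in roxadustat against DMOG Egln1 lies above 0 in retina RNA (0.64) and Egln3 below 0 in liver RNA (-1.13).

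Between the drugs, 0 of 5 were called in liver RNA, where 2.99% of genes were called (1.86% higher, 1.14% lower), and 1 of 5 (Egln1, higher with roxadustat) in retina RNA, where 1.31% were called (0.980% higher, 0.334% lower). Among genes not called, Egln3 in liver RNA and Vhl in retina RNA had an unadjusted p under 0.05 in limma. With DMOG replicate 5 left out, 2 of 5 were called in liver RNA, Egln3 and Vhl, both lower with roxadustat, where 16.2% of genes were called (9.06% higher, 7.15% lower). With all libraries the Vhl difference in liver RNA was -0.21 (95% interval -0.44 to 0.03). The other intervals for roxadustat against DMOG were -0.43 to 0.30 for Egln1, -0.24 to 0.09 for Egln2 and -0.04 to 0.18 for Hif1an in liver RNA.

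The difference of each response between liver RNA and retina RNA was tested as an interaction over 11101 genes that passed the filter in both tables. With DMOG, 3 of 5 differed, where 15.9% of genes were called (6.97% with a higher response in liver RNA, 8.91% lower). The log2 response was greater in liver RNA by 2.33 ± 0.39 (SE) for Egln3 (adjusted p = 0.000308, limma), by 0.91 ± 0.19 for Egln1 (adjusted p = 0.00152) and by 0.51 ± 0.12 for Vhl (adjusted p = 0.00332). With roxadustat, 0 of 5 were called, where 2.24% of genes were (1.22% higher, 1.03% lower). Among genes not called, Egln2 and Egln3 with roxadustat, and Egln2 and Hif1an with DMOG, had an unadjusted p under 0.05 in limma. With roxadustat the Egln1 difference was 0.21 (95% interval -0.18 to 0.59), that of Vhl 0.20 (-0.04 to 0.44), and that of Egln3 1.01 (0.21 to 1.81, adjusted p = 0.183). Egln2 differed by -0.33 (-0.52 to -0.14, adjusted p = 0.0533 in limma), with a lower mean than PBS in liver RNA and a higher mean in retina RNA; leaving out any of 10 of the 36 libraries brought it under the threshold (adjusted p from 0.0292).

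More of these differences were called without DMOG replicate 5. With roxadustat, 2 of 5 were, where 4.75% of genes were called (2.26% higher, 2.49% lower): Egln3 (adjusted p = 0.000941, limma) and Egln2 (adjusted p = 0.0355). With DMOG, 4 of 5 were, where 28.8% of genes were called (13.3% higher, 15.5% lower), the added gene being Egln2 (-0.26 ± 0.10, adjusted p = 0.0415). Each tissue has a table of its own, so tissue and table cannot be told apart.

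The partners of VHL in its ubiquitin ligase were called in no comparison within a table. They are Tceb1 and Tceb2 (elongins C and B), the scaffold Cul2 and the RING subunit Rbx1. All 4 were tested in both RNAs in the 6 comparisons. In liver RNA with DMOG their median log2 fold change was 0.08 (all genes 0.01), and in retina RNA with roxadustat it was 0.01 (all genes -0.00). Tceb1 had the smallest adjusted p with DMOG in liver RNA, 0.119 in limma, at 32.1 ± 1.65 FPKM with DMOG and 28.2 ± 3.96 FPKM with PBS (SD, n = 6 each).

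Genes for proteins that bind or turn over the hydroxylases, among them the ubiquitin ligase Siah2, the chaperone Fkbp8 and the scaffold Wdr83, were called 1 time in 6 comparisons of 7 genes. Siah2, which targets prolyl hydroxylases for degradation, was higher in retina RNA at 12.5 ± 0.744 FPKM with roxadustat, against 10.9 ± 0.577 FPKM with PBS, a difference of 0.19 ± 0.05 in log2 (SE, adjusted p = 0.0437 in limma). That call, in a comparison where 1.69% of all genes were higher, was lost with equal totals. If DMOG replicate 5 is left out, Wdr83 was called in liver RNA, higher with roxadustat than with DMOG (0.27 ± 0.08, adjusted p = 0.0261 in limma). In that comparison 9.06% of all genes were higher.

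Of the alpha subunits, the substrates of the hydroxylases, Hif1a and Epas1 were tested: both were lower with roxadustat in liver RNA, and Hif1a in retina RNA. Hif1a was 11.8 ± 0.870 FPKM with roxadustat and 14.8 ± 1.49 FPKM with PBS in liver RNA (SD, n = 6 each), a log2 change of -0.32 ± 0.08 (SE, adjusted p = 0.0303 in limma), and 247 ± 25.4 FPKM with roxadustat and 291 ± 5.85 FPKM with PBS in retina RNA (-0.24 ± 0.05, adjusted p = 0.0183; lost with equal totals). Epas1, which encodes HIF-2 alpha, was lower with roxadustat in liver RNA (-0.44 ± 0.12, adjusted p = 0.0426). With DMOG, Arnt, the beta subunit, was higher in liver RNA, 14.5 ± 3.43 FPKM against 9.05 ± 0.423 FPKM with PBS (0.61 ± 0.13, adjusted p = 0.00336), and no alpha subunit was called. Among the libraries other than DMOG replicate 5, Arnt gave 0.75 ± 0.08 and Hif1a was called lower with DMOG too, 12.5 ± 0.956 FPKM with DMOG (SD, n = 5) and 14.8 ± 1.49 FPKM with PBS (-0.24 ± 0.08, adjusted p = 0.0210 in limma). Arnt was then lower with roxadustat than with DMOG (-0.53 ± 0.08, adjusted p = 0.000285 in limma). In retina RNA, Hif1a was also lower with roxadustat than with DMOG (-0.28 ± 0.05, adjusted p = 0.00842 in limma; lost with equal totals). Hif3a did not pass the filter in either table, nor did Arnt2 in liver RNA. In liver RNA, 2 of 3 tested were lower with roxadustat (2.02% of all genes) and 1 higher with DMOG (8.26%). Without replicate 5, DMOG gave 1 of 3 higher (17.3%) and 1 lower (18.1%). Then 1 of 3 was lower with roxadustat than with DMOG (7.15%). In retina RNA, 1 of 4 was lower with roxadustat than with PBS (0.653%) and than with DMOG (0.334%). Single calls are not read as a result about the list.

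Other enzymes that use 2-oxoglutarate and oxygen, the collagen prolyl and lysyl hydroxylases and the JmjC and TET demethylases, were read beside the HIF hydroxylases. In liver RNA, 9 of 14 tested were higher and 0 lower with DMOG, where 8.26% of all genes were higher. Their median log2 fold change was 0.49 (all genes 0.01). With roxadustat 6 of 14 were higher (median 0.33, all genes -0.00), where 2.16% of all genes were. With DMOG replicate 5 left out these counts were 11 and 7, where 17.3% and 4.12% of all genes were higher. Then 5 of 14 were lower with roxadustat than with DMOG, where 7.15% of all genes were. With all libraries at equal totals, 8 of 14 were higher and 1 lower with DMOG, where 584 genes were higher and 2687 lower. P4ha2, a collagen prolyl 4-hydroxylase subunit, changed most of those with the smallest p, 7.65 ± 3.85 FPKM with DMOG and 0.768 ± 0.153 FPKM with PBS (SD, n = 6 each), or 2.44 ± 0.35 in log2 (SE, adjusted p = 0.000792 in limma). P4ha1, the other common alpha subunit, gave 1.30 ± 0.22, and the histone demethylases Kdm3a and Kdm4b gave 0.73 ± 0.14 and 0.72 ± 0.12. Leaving out DMOG replicate 5, P4ha2 gave 2.88 ± 0.14, P4ha1 1.58 ± 0.09, Kdm3a 0.88 ± 0.08 and Kdm4b 0.85 ± 0.08. In retina RNA, 1 of 16 was higher with DMOG (Kdm3a, 0.39 ± 0.06, adjusted p = 0.00456 in limma), where 0.370% of all genes were. With roxadustat 5 of 16 were higher (median 0.23, all genes -0.00), where 1.69% of all genes were. Those with the smallest p were Kdm3a (0.70 ± 0.06), Jmjd6 (0.57 ± 0.06), Kdm4b (0.48 ± 0.06) and P4ha1 (0.83 ± 0.12). Higher with roxadustat than with DMOG were 6 of 16, where 0.980% of all genes were.

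The HIF readout genes, 9 of 10 tested in each RNA, were called as follows. In liver RNA, 7 were higher with DMOG (median log2 fold change 1.44) and 6 with roxadustat (1.38), where 8.26% and 2.16% of all genes were. Roxadustat against DMOG gave 0 of 9 called there. Without DMOG replicate 5, 8 were higher with each drug than with PBS, where 17.3% and 4.12% of all genes were. Between the drugs, 5 of 9 were then lower with roxadustat than with DMOG (median -0.59), where 7.15% of all genes were. With DMOG, Ero1l gave 2.59, Bnip3, a mitophagy receptor, 2.39, Ndrg1 1.56 and Pdk1 1.44, and without that library 3.06, 2.85, 1.79 and 1.70 in the same order. In retina RNA, 1 was higher with DMOG (0.370% of all genes) and 6 with roxadustat (1.69%), and 4 were higher with roxadustat than with DMOG (0.980%). Pdk1, a kinase that holds pyruvate dehydrogenase off, was 14.3 ± 2.04 FPKM with DMOG, 29.9 ± 5.81 FPKM with roxadustat and 10.4 ± 2.29 FPKM with PBS in retina RNA (SD, n = 6 each). Ankrd37, the readout called with DMOG there, was 34.4 ± 4.99 FPKM with DMOG and 21.2 ± 3.50 FPKM with PBS (log2 fold change 0.69 ± 0.11, adjusted p = 0.00427 in limma). DMOG and roxadustat were compared with the same 6 PBS libraries in each RNA.

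Likeness to the called genes was measured as the root mean square difference over the 18 libraries of a table, each gene taken as log2(FPKM + 0.5) minus its PBS mean, over genes averaging 1 FPKM or more. This is a description, and the libraries share scaling and, for liver RNA, replicate 5. In liver RNA, of 11736 genes, those nearest Egln3 were Ero1l, an oxidase of the endoplasmic reticulum (0.24), Gpi1, glucose-6-phosphate isomerase (0.26), P4ha2 (0.28), 2010003K11Rik (0.29) and Fam162a, a mitochondrial protein (0.37), where the median gene was at 1.76. Nearest Egln1 were Higd1a, a mitochondrial protein (0.19), St3gal1, a sialyltransferase (0.21), Tpi1, triosephosphate isomerase (0.21), Eno1, an enolase (0.22), and Bnip3l, a mitophagy receptor (0.22), with the median gene at 0.99. Nearest Vhl were Rnf11, Podxl, Stat3, Rhoj and Paics (0.12 to 0.14), with the median gene at 0.46.

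In retina RNA, of 12821 genes, those nearest Egln1 were Gpi1 (0.08), Aldoa, an aldolase (0.09), Ldha, a lactate dehydrogenase subunit (0.11), Pgam1, a phosphoglycerate mutase (0.11), and Ankzf1 (0.11), with the median gene at 0.57. Each had a mean log2 difference from PBS of 0.28 to 0.35 with DMOG and 0.87 to 0.99 with roxadustat, against 0.27 and 0.91 for Egln1. Among those nearest Vhl were Tmem97, P4hb, Eif2b5 and Cd81 (0.06 each), where the median gene was at 0.17 and Vhl itself moved little.

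**Figure D4:**
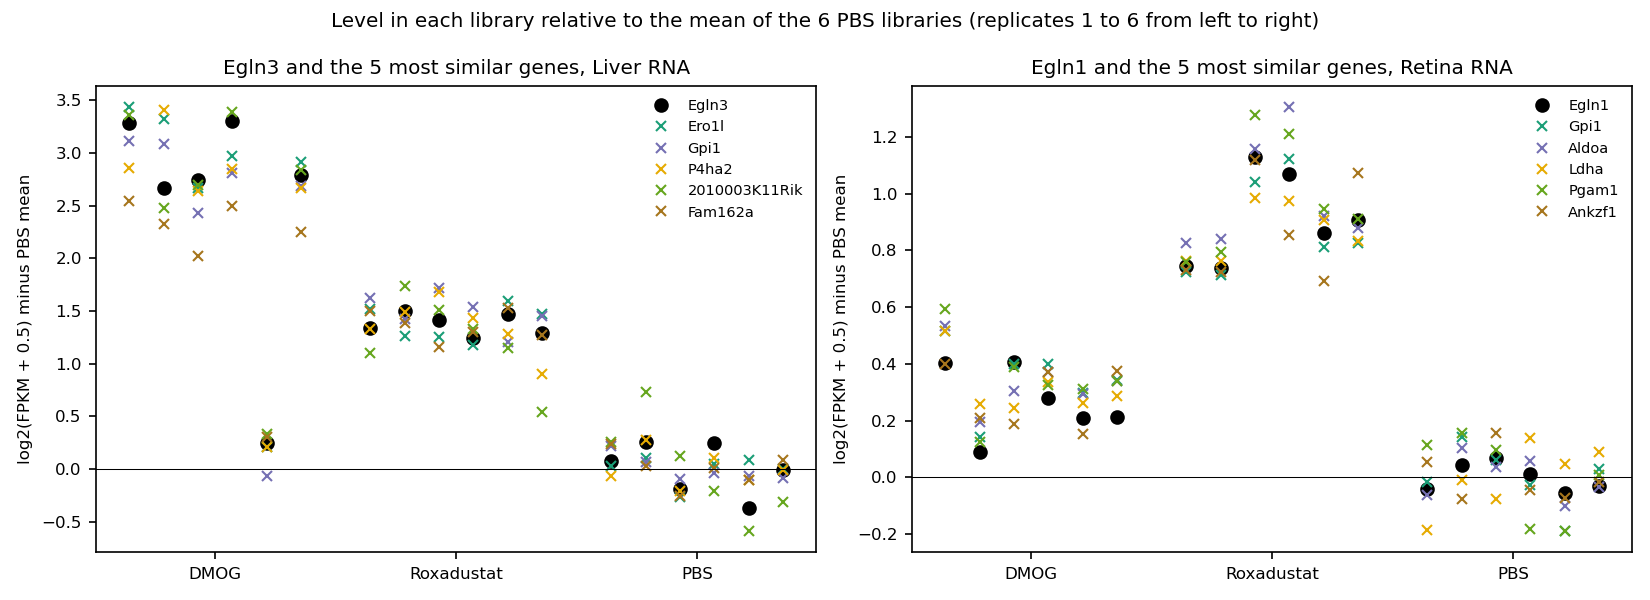
Level in each library, as log2(FPKM + 0.5) minus the mean of the 6 PBS libraries, for Egln3 in liver RNA (left) and Egln1 in retina RNA (right), both as black dots, with the 5 most similar genes as coloured crosses; replicates 1 to 6 run from left to right within a treatment. In liver RNA all 6 genes of the panel are near the PBS level in DMOG replicate 5 and above 2 in the other DMOG libraries; in retina RNA roxadustat libraries lie above DMOG libraries.

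Some markers of other cell types were called, and are given beside the share of all genes called. In retina RNA, the 5 lens markers, whose sums stand with Egln1 above, were at most 4.19% of a library's total. Of these, 5 of 5 were lower with DMOG, where 0.697% of all genes were, and 1 of 5 with roxadustat, where 0.653% were. No defining lens marker was at 0 in all libraries. Summed erythroid markers (7 genes) were 23.8 to 47.5 FPKM with DMOG, 12.8 to 57.0 FPKM with roxadustat and 10.9 to 19.4 FPKM with PBS there. Of 3 tested, 0 were called with DMOG and 1, higher, with roxadustat, where 1.69% of all genes were higher. The part of both in the retina RNA results was not tested. Endothelial, pigment epithelium and Mueller glia markers had 0 genes called with either drug in retina RNA. In liver RNA with DMOG, 2 of 4 bile duct and 1 of 5 endothelial markers were higher, where 8.26% of all genes were. Lower were 1 of 5 stellate cell and pericyte and 1 of 3 Mueller glia and astrocyte markers, where 11.7% of all genes were. Called were 0 of 5 liver, 0 of 7 erythroid and 0 of 5 macrophage markers. Without replicate 5, 3 of 5 macrophage and 2 of 5 endothelial markers were higher, where 17.3% of all genes were. So were 1 of 1 pigment epithelium marker tested and 1 of 3 Mueller glia and astrocyte markers. With roxadustat, 1 of 5 stellate cell and pericyte markers was lower than with PBS (2.02% of all genes), and 1 of 5 lower than with DMOG (1.14% of all genes). If DMOG replicate 5 is left out, 1 of 3 Mueller glia and astrocyte markers was also lower with roxadustat than with PBS (4.65% of all genes). Summed macrophage markers were 227 to 621 FPKM with DMOG and 285 to 522 FPKM with PBS, and their part in the liver RNA results was not tested.

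The levels of Xist against Y-linked genes split the liver RNA into 4 female and 2 male libraries with DMOG, 1 and 5 with roxadustat, and 3 and 3 with PBS, and the retina RNA into 2 and 4, 3 and 3, and 3 and 3. With sex as a covariate, Egln1, Egln3 and Vhl with DMOG and Egln1 and Egln3 with roxadustat in liver RNA, and Egln1 and Vhl with roxadustat in retina RNA, were still called. Rescaling each library to an equal total moved the balance of all calls in liver RNA: 17.9% of called genes were higher with DMOG in place of 41.4%, 31.4% with roxadustat in place of 51.7%, and 82.6% in roxadustat against DMOG in place of 62.0%. Under that scaling Egln1, Egln3 and Vhl with DMOG, and Egln1 and Egln3 with roxadustat, were still called higher in liver RNA.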

How the data were processed

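Libraries were made from total RNA (RNeasy) with a stranded, ribosome-depleted TruSeq kit, per the labels' protocols. The authors deposited FPKM values per gene and library, which are relative to transcript length and library total. bcl2fastq 1.8.3, TopHat2 (version 2), Cuffdiff 2.2.1 and build mm9 are named, per the submitters' processing notes; the annotation, the scaling and the use of strand are not given in the sources used here. A row of totals was left out of the table labelled retina; 25 genes carry spreadsheet dates as names and were kept. Columns outside the 36 libraries numbered 0. No read count is given; the commonest ratio of low values between libraries gives a rough relative depth with SDs of 0.0207 to 0.162 within a group, and it rests on few values, so no counting intervals are given. No library pair was identical (r from 0.937 to 0.994).

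The fit kept genes that averaged 0.5 FPKM or more across a table's 18 libraries, as log2(FPKM + 0.5), with 3 group means and 15 residual degrees of freedom, in limma 3.58.1 (statmod 1.5.0, R 4.3.3; empirical Bayes with a mean trend, two-sided, Benjamini-Hochberg over all genes at 0.05). Differences between tables used all 36 libraries in a joint fit. The fit was tested on simulated data with independent errors, where no library stood apart as DMOG replicate 5 of the liver RNA does. That test therefore does not cover such a library. Figures used Python 3.11.15 and matplotlib 3.10.9. The 5 genes and every list were chosen with earlier results of these data known. All 5 are always named; of a list, at most 4 members with the smallest adjusted p; likeness names the 5 nearest genes, of which 1 is not reported here. Wdr83 without DMOG replicate 5 was named after its values were seen. Sequences come from RefSeq promoters on GRCm38.p6, and overlaps from GENCODE. The alternatives tried were a pseudocount of 0.1 or 1, a filter at 5 FPKM or none, rescaling by total or median ratio, no mean trend, robust fit, library weights, replicate block, sex covariate, only the groups compared, and leaving out each library. The lists without DMOG replicate 5, and the lists and the balance of calls under rescaling, were added after seeing the data. Same-numbered libraries correlated in their deviations at -0.33 to 0.55, so the numbers were not taken as pairs.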

Additional observations from a re-analysis of the deposited data

Results flagged for a closer look

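The responses to DMOG of 3 genes differed between liver RNA and retina RNA in the test of the difference itself, by a log2 value of 2.33 for Egln3, 0.91 for Egln1 and 0.51 for Vhl, each larger in liver RNA (adjusted p = 0.000308, 0.00152 and 0.00332 in limma). Each was still called when any 1 of the 36 libraries was left out.

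Hif1an had a library apart from its group in both RNAs with DMOG. In liver RNA, DMOG replicate 6 was at 6.89 FPKM, with the other DMOG libraries at 6.06 to 6.32 FPKM, a gap of 0.693 of the range. In retina RNA, DMOG replicate 5 was at 16.1 FPKM, with the others at 17.8 to 18.5 FPKM, a gap of 0.685 of the range. Both gaps passed Dixon's 95% limit for 6 libraries. In all, 30 groups were looked at and 2 passed it, where chance alone gives about 1 in 20. Without DMOG replicate 5 of the retina RNA, the difference of the Hif1an response to DMOG between the RNAs was called (adjusted p = 0.0478 in limma, against 0.0864 with it).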

How the results depend on the processing

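Of 380 recomputed values of the 11 called results on single genes, 0 changed sign. The count of the 5 genes called was 3 with DMOG in liver RNA under all 12 alternatives and in the 18 fits that left out a library. With roxadustat in liver RNA it was 2, 1 with no filter (Egln3 lost, adjusted p = 0.0541 in limma), 3 with library weights or only the groups compared (Vhl added), and 1 to 3 with a library left out. With roxadustat in retina RNA it was 2, and 1 with equal totals or only the groups compared (Vhl lost), and 2 to 3 with a library left out. With DMOG in retina RNA it was 0, 1 with only the groups compared (Egln1), and 0 to 1 with a library left out. Between the drugs it was 0 in liver RNA, 2 with library weights and 0 to 2 with a library left out, and in retina RNA 1, and 2 with library weights. Of the differences between RNAs, DMOG gave 3, 5 with equal totals (where 2086 of all genes were called in place of 1763), and 3 to 4 with a library left out. It gave 2 with the filter of 5 FPKM, which Egln3 in retina RNA does not pass, so that Egln3 was not tested there. Roxadustat gave 0, 1 with equal totals, 2 with library weights, and 0 to 2 with a library left out. The cause of the other changes was not tested.

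The number of all genes called moved as well, by over 1.5 times in the following cases. Library weights raised it in liver RNA to 4240 for DMOG against PBS (2526 in the main analysis), 1590 for roxadustat against PBS (530) and 1692 for roxadustat against DMOG (379), and in retina RNA to 551 (147), 512 (323) and 607 (181). For the differences between RNAs, weights gave 3191 with DMOG (1763) and 737 with roxadustat (249). With only the groups compared, roxadustat against PBS gave 1229 in liver RNA and 190 in retina RNA, roxadustat against DMOG 62 in liver RNA, and DMOG against PBS 94 in retina RNA. In liver RNA, roxadustat against DMOG gave 78 with sex as covariate and 232 with no filter. The filter of 5 FPKM, which tests fewer genes, gave 1655 with DMOG and 325 with roxadustat in liver RNA, and 976 and 113 for the differences. The counts of the 5 genes above are to be read against these.

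The replicate numbers did not pair the libraries. With the replicate block, 1 of 5 was called with DMOG in retina RNA (Egln1, adjusted p = 0.0449) and 1 of 5 (Egln2) in the difference of the roxadustat response; other counts were as without it. At most 3 of 6 libraries correlated best with their own number.

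Values that changed sign were all uncalled. Roxadustat against DMOG for Egln1 in liver RNA was -0.063, 0.045 with sex as covariate, and -0.26 to 0.035 with a library left out. For Egln2 in retina RNA it was 0.015, and -0.0077 to 0.041. For Hif1an with roxadustat, liver RNA gave -0.0077, 0.022 with library weights, 0.016 with sex as covariate and -0.029 to 0.019; retina RNA gave 0.010, -0.017 with equal totals, -8.9e-04 with library weights and -0.012 to 0.039; their difference was -0.018, 0.018 with library weights and -0.046 to 0.0088. Egln3 in retina RNA has no value with the filter of 5 FPKM. With unknown depth, Egln3 at 1 to 3 FPKM in retina RNA is the least certain level here.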
